A study of Homo sapiens with 8 samples.

Results

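The mitochondrial ribosomal protein genes are the nuclear genes whose symbols start with MRPL or MRPS, named for the large and the small subunit of the ribosome inside mitochondria. Members were all protein-coding genes with such a symbol and an FPKM (fragments per kilobase of transcript, scaled to the mapped fragments of the library) that reached 1 in 2 or more of the 8 libraries; pseudogenes, antisense RNAs and read-through transcripts were left out. All 78 protein-coding genes with these symbols passed, 49 MRPL and 29 MRPS, among 10465 genes that passed the same filter and 36991 genes in the table. None of the 76 other MRPL or MRPS symbols in the table passed it. Symbols do not map onto subunits without exception, since MRPS18A and MRPS30 encode proteins of the large subunit, and MRPS36, which RefSeq lists as KGD4, is known as a subunit of the 2-oxoglutarate dehydrogenase complex. It was kept because the rule goes by symbol.

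RNA was sequenced from 4 lines derived from MDA-MB-231, a human triple-negative breast cancer cell line of mesenchymal character, with 2 libraries per line. WT OE cells overexpressed wild-type DAXX cDNA from the CMV immediate-early promoter of a lentiviral vector, DSM OE cells overexpressed in the same way a DAXX mutant (I7K/I733K) with both SUMO-interacting motifs disabled, KD cells carried an shRNA against DAXX, and control cells carried a scrambled shRNA. All 4 were stably transduced lines, 1 line per condition, and no line with an empty overexpression vector was analysed here, so the vector and the cDNA cannot be told apart in WT OE or DSM OE against control. DSM OE libraries were assigned by their genotype label, since their titles contain WT too. DAXX helps to deposit a histone variant on chromatin and acts as a co-regulator of transcription that binds SUMO-modified proteins.

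The mitochondrial ribosome translates only the mRNAs that mitochondrial DNA encodes, all of them for subunits of the respiratory chain and ATP synthase. Its RNAs are made in the mitochondrion, whereas every protein of it is encoded in the nucleus, translated in the cytosol and imported. By the list used here, 46 of the members have a bacterial counterpart and are taken as the inherited core, and 32, MRPS36 among them, do not. The list counts MRPS18C among the 46, but not MRPS18A, MRPS18B or MRPL58. NRF1, the ETS factor GABPA and YY1 are known regulators of nuclear genes for mitochondrial proteins.

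Promoter sequences from RefSeq (GRCh38.p14, 250 bases before to 50 after the start) were matched by symbol for 70 of the 78 members; MRPL10, MRPL13, MRPL15, MRPL2, MRPL21, MRPL23, MRPL35 and MRPS28 had no entry. The letters AANATGGCG (YY1, either strand) were found in 18 of the 70 (25.7%), against 762 of 15843 promoters of protein-coding genes (4.81%) and 646 of 8198 promoters of genes that passed the FPKM filter (7.88%). Of the 20 matches, 16 lay after the start (80%) and 18 read on the gene's own strand (90%), against 524 (66.2%) and 557 (70.4%) of the 791 matches over all protein-coding promoters. The letters CCGGAAGT (ETS) were in 11 of the 70 (15.7%) against 9.92% of promoters of filtered genes, and CGCANGCG (NRF1) in 13 (18.6%) against 20.4%. Matches of different motifs were allowed to overlap, and 35 of 70 promoters held at least 1 of the 3, against 33.3% of the promoters of filtered genes. A match is a description of the letters and no evidence of binding. The windows around the YY1 letters are shown for the 6 most highly expressed members that hold them, 5′ to 3′ on the gene's strand with the matched letters in capitals, because the share of these letters was the furthest of the 3 from that of the other promoters.
MRPL37, chr1:54200189-54200216, plus strand: tgcgcgcggcAACATGGCGgggtccagg
MRPS24, chr7:43869480-43869508, minus strand: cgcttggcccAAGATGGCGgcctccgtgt
MRPS18B, chr6:30617853-30617881, plus strand: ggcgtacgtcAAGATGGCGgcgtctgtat
MRPS10, chr6:42217834-42217862, minus strand: cgggaccggcAAGATGGCGgcgcggacag
MRPS18A, chr6:43687764-43687792, minus strand: taggtttttgAAGATGGCGgccctcaagg
MRPL9, chr1:151763464-151763492, minus strand: tgtgcctgtgAACATGGCGgcgcccgttg
In each of these windows the capitals include an ATG read on the gene's strand.

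The 250 bases before the start are shown for the 3 members that differed from control in both overexpressing lines, MRPS6, MRPL30 and MRPS26, again 5′ to 3′ on the gene's strand, with letters that match 1 of the 3 motifs in capitals.
MRPS6, chr21:34073328-34073577, plus strand: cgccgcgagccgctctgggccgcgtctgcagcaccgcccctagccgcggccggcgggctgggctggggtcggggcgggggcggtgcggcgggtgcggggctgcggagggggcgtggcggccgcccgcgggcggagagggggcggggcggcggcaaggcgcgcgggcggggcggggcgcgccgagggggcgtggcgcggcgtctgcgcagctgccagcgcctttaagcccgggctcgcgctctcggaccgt
MRPL30, chr2:99180934-99181183, plus strand: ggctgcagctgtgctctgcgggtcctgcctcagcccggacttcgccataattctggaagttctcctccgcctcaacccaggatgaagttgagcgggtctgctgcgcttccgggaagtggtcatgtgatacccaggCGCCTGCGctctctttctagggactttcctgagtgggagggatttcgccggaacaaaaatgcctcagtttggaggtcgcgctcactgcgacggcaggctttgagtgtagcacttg
MRPS26, chr20:3045802-3046051, plus strand: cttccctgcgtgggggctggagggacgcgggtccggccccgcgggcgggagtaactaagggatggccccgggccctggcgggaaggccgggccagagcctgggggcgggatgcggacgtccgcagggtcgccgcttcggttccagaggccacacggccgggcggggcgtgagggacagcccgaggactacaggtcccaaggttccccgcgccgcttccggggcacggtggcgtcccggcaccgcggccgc
Only the MRPL30 stretch held a match, to the NRF1 letters.

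Counts were not in the file, so depth is unknown; low FPKM values put the libraries at 0.912 to 1.17 times the depth of the first control library. DAXX, the targeted gene, stood at 158 and 283 FPKM in WT OE, 64.6 and 93.8 FPKM in DSM OE, 8.6 and 7.3 FPKM in KD and 25.3 and 37.4 FPKM in control, in the order of the labels. It differed from control in KD (log2 difference -1.83 ± 0.34 SE, adjusted p = 0.0364) and WT OE (2.74 ± 0.34, adjusted p = 0.0175), and the DSM OE difference missed the threshold (1.31 ± 0.34, adjusted p = 0.0661); the KD call was lost without any 1 control, KD or DSM OE library, and the WT OE call if WT OE replicate 2 or a control library was left out. Of 6 mesenchymal markers 5 passed the filter, and SPARC did not. MSN was at 149.6 to 169 FPKM in the 8 libraries and CD44 at 11.96 to 17.97 FPKM, whereas VIM was at 39.1 FPKM in KD replicate 1 and 682 to 1328 FPKM in the other 7. AXL was higher in WT OE, against control (0.53 ± 0.10 SE, limma adjusted p = 0.0483; lost without any 1 library) and against KD (0.84 ± 0.10 SE, limma adjusted p = 0.00865; lost without either KD library). CAV1 was lower in DSM OE against control (-0.76 ± 0.10 SE, limma adjusted p = 0.0116; lost without control replicate 1) and higher in WT OE against DSM OE (0.80 ± 0.10 SE, limma adjusted p = 0.0288; lost without any 1 library). Of 7 luminal or epithelial markers, ESR1 and PGR were listed at 0 in all 8 libraries, CDH1 reached at most 0.0036 FPKM and FOXA1 0.69 FPKM. ERBB2 (mean 3.81 FPKM), EPCAM (2.15 FPKM) and GATA3 (0.93 FPKM) passed the filter. EPCAM had 0.873 and 1.22 FPKM in KD, against 2.78 and 2.24 FPKM in control (-0.78 ± 0.15 SE, limma adjusted p = 0.0368), and was higher in WT OE, with 2.01 and 2.45 FPKM, than in KD (0.66 ± 0.15 SE, limma adjusted p = 0.0427); both calls were lost without any 1 library. The part of these marker differences in the members' values was not tested.

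The members were moderately expressed. Their mean FPKM over the 8 libraries ran from 0.82 to 77.1 with a median of 11.4, against a median of 5.23 for all genes that passed the filter. The highest were MRPL14 (77.1 FPKM), MRPS34 (57.8 FPKM) and MRPL12 (57.6 FPKM), and the lowest MRPL42 (1.23 FPKM), MRPS11 (1.1 FPKM) and MRPS18C (0.82 FPKM). MRPL14 lies on the face of the large subunit that meets the small one, MRPS34 is a protein particular to the mitochondrial small subunit, and MRPL12 forms the flexible stalk that recruits translation factors. FPKM is scaled by length, but the step from transcripts to genes is not given, so levels of different members compare only roughly. On average 19 members were at 20 FPKM or more and 18 under 5 FPKM. MRPL members had a median of 12.7 FPKM and MRPS members 9.6 FPKM.

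Members with well-known roles were detected in all 8 libraries. MRPL10, which anchors the stalk, had 10.7 and 10.0 FPKM in WT OE, 14.5 and 12.98 FPKM in DSM OE, 11.5 and 11.9 FPKM in KD and 10.0 and 10.3 FPKM in control. MRPL12, on that stalk, had 51.7 and 53.2 FPKM in WT OE, 49.6 and 60.3 FPKM in DSM OE, 82.1 and 32.3 FPKM in KD and 64.0 and 67.2 FPKM in control. The KD duplicates of MRPL12 lay on either side of all other libraries. MRPL11, at the base of the stalk, had 7.36 and 6.58 FPKM in WT OE, 5.23 and 6.01 FPKM in DSM OE, 17.0 and 12.9 FPKM in KD and 8.85 and 4.07 FPKM in control. MRPL44, which has a fold of the RNase III family, stayed between 10.7 and 14.6 FPKM in the 8 libraries. MRPL45, which holds the ribosome to the inner membrane, was at 22.8 and 21.4 FPKM in KD and between 26.8 and 34.0 FPKM in the other 6 libraries. MRPL58, a peptidyl-tRNA hydrolase that also releases stalled ribosomes, was lowest in control replicate 1 (13.4 FPKM) and between 19.9 and 23.1 FPKM elsewhere. MRPS12, in the decoding centre, had 27.4 and 19.8 FPKM in KD and between 13.5 and 17.9 FPKM in the rest. None of these 7 passed the threshold in any comparison.

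Differences were tested with limma on log2(FPKM + 1), with p-values adjusted by Benjamini-Hochberg over all 10465 genes, and a member was called at an adjusted p under 0.05. Log2 differences are on this scale, which understates the change of low genes. Across the 5 comparisons 11 of the 78 members (14.1%) were called at least once, against 20.6% of all genes; 7 of them are MRPL and 4 MRPS, and 7 have a bacterial counterpart. The other 67 passed in none. A looser rule, an unadjusted limma p under 0.05 with a change of over 1.3-fold either way, passed 20.5% of the members in KD against control (all genes 18.7%), 15.4% in WT OE against control (all genes 18.1%), 21.8% in DSM OE against control (all genes 23.8%), 7.69% in WT OE against DSM OE (all genes 12.6%) and 20.5% in WT OE against KD (all genes 23.9%). As these are bulk libraries, fewer cells with a transcript and less of it per cell cannot be told apart.

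**Figure D1:**
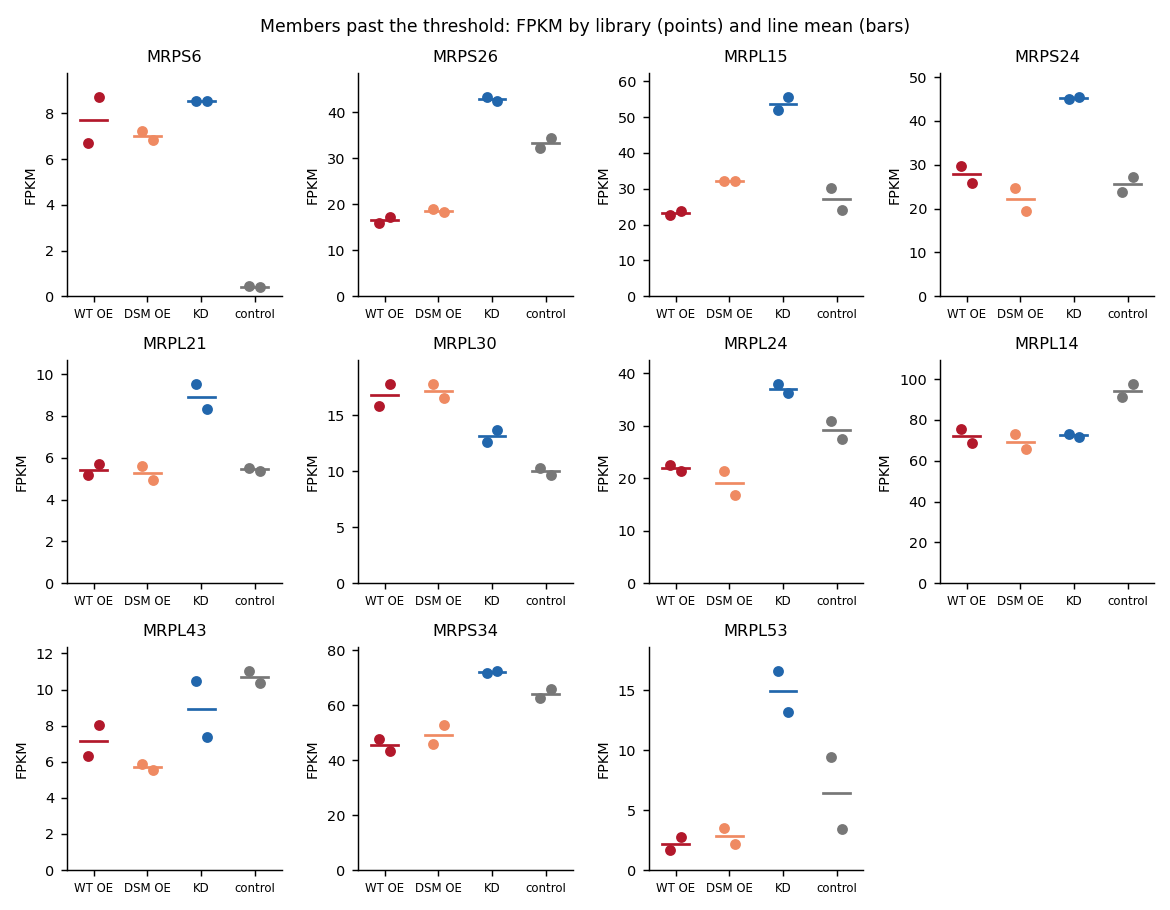
FPKM (y axis, from 0) of the 11 members called in at least 1 comparison, by line (x axis); points are the 2 libraries of a line and horizontal bars their mean. MRPS6 is under 1 FPKM only in the control libraries, and MRPS26 is lowest in WT OE and DSM OE and highest in KD.

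KD against control asked what loss of DAXX changes. Of the 78 members 4 rose (5.13%), MRPS6, MRPL15, MRPS24 and MRPL21, and none fell, where 3.51% of all genes were called higher and 3.69% lower. MRPS6, a small-subunit protein with a bacterial counterpart, had 8.53 and 8.54 FPKM in KD, against 0.436 and 0.399 FPKM in control. The ratio of means was 20.4 and the log2 difference 2.75 ± 0.14 (SE, n = 2 libraries per line, limma adjusted p = 0.000392).

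MRPL15, a core protein of the large subunit, had 52.0 and 55.6 FPKM in KD, against 30.4 and 24.1 FPKM in control. The groups did not overlap and the log2 difference was 0.97 ± 0.13 (SE, limma adjusted p = 0.0134). MRPS24, which sits where mRNA enters the small subunit, had 44.9 and 45.4 FPKM in KD, against 23.8 and 27.2 FPKM in control, a log2 difference of 0.80 ± 0.15 (SE, limma adjusted p = 0.0324). MRPL21, another core protein of the large subunit, had 9.52 and 8.33 FPKM in KD, against 5.52 and 5.35 FPKM in control. Its log2 difference was 0.62 ± 0.12 (SE, limma adjusted p = 0.036). Of these only MRPS6 kept its call without any 1 of the 8 libraries. The call of MRPL15 was lost without either KD library, that of MRPS24 without any 1 library other than the DSM OE ones, and that of MRPL21 without any 1 library.

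Over all 78 members, these 4 included, small positive differences were common. The median member difference was 0.18 against 0.03 over all genes, and 56 of 78 (71.8%) lay above 0 against 53.7% of all genes. Before adjustment, limma gave 22 higher (28.2%, all genes 12.1%) and 5 lower members (6.41%, all genes 11.2%) with p under 0.05. Both KD libraries were above both control libraries for 38 members (48.7%, all genes 31.4%) and below both for 13 (16.7%, all genes 26.1%). With 1 KD or control library left out, the median of the members was between 0.16 and 0.21. The summed FPKM of the 78 members was 1336 and 1312 in KD, against 1181 and 1188 in control, or 0.803% and 0.786% of the summed FPKM of the library against 0.712% and 0.729%. The median difference was 0.18 for MRPL members, 37 of 49 of them above 0, and 0.16 for MRPS members, 19 of 29 of them above 0. It was 0.20 for the large-subunit and 0.29 for the small-subunit proteins with a bacterial counterpart, and 0.11 for the members without one.

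**Figure D2:**
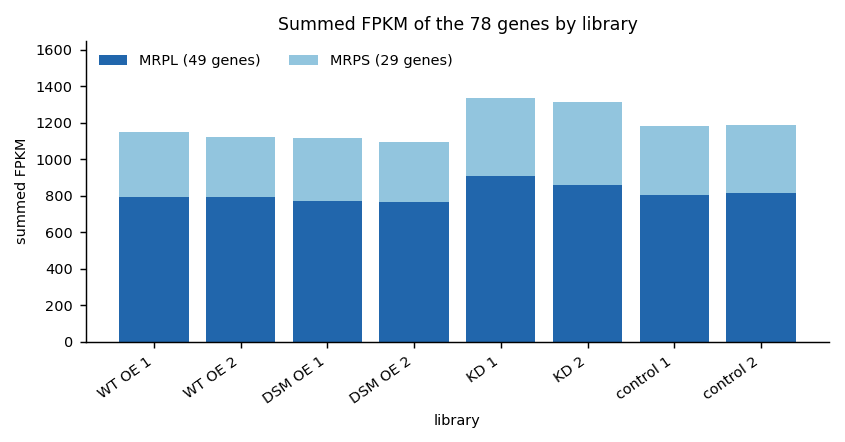
Summed FPKM of the 49 MRPL (dark) and 29 MRPS (light) members (y axis, from 0) in each of the 8 libraries (x axis). The KD libraries stand at 1336 and 1312 and the other 6 between 1094 and 1188.

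WT OE against control asked what added wild-type DAXX changes. MRPS6 and MRPL30 rose, as 2.49% of all genes did, and MRPS26 fell, as 2.62% of all genes did. MRPS6 had 6.71 and 8.71 FPKM in WT OE, against 0.436 and 0.399 FPKM in control, a ratio of means of 18.5 and a log2 difference of 2.61 ± 0.14 (SE, limma adjusted p = 0.00189). MRPS6 was low in the control libraries and high in those of the other 3 lines. Its differences from control in all 3 lines rest on the same 2 control libraries, both under 1 FPKM, and are not independent. The part that switching between the transcripts behind its value had in them was not tested. MRPL30, a core protein of the large subunit, had 15.8 and 17.8 FPKM in WT OE, against 10.3 and 9.67 FPKM in control (log2 difference 0.70 ± 0.11 SE, limma adjusted p = 0.0276). MRPS26, a small-subunit protein with no bacterial counterpart, had 15.9 and 17.3 FPKM in WT OE, against 32.3 and 34.4 FPKM in control (log2 difference -0.97 ± 0.09 SE, limma adjusted p = 0.00753). Both WT OE libraries were below both control libraries.

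The calls of MRPS6 and MRPS26 in WT OE held without any 1 library, whereas MRPL30 was lost without any 1 of them. The members as a whole lay where all genes lay in WT OE, with a median of 0.02 against 0.02, and 41 of 78 above 0. An unadjusted limma p under 0.05 was given to 6 higher (7.69%, all genes 12.2%) and 10 lower members (12.8%, all genes 10.4%). Summed FPKM was 1149 and 1122 in WT OE, against 1181 and 1188 in control.

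DSM OE against control asked the same of DAXX that cannot bind SUMO. Here 2 members rose, with 5.51% of all genes called higher, and 4 fell, with 5.5% of all genes called lower. MRPS6 had 7.22 and 6.83 FPKM in DSM OE, against the control values given above (log2 difference 2.50 ± 0.14 SE, limma adjusted p = 0.00124). MRPL30 had 17.7 and 16.6 FPKM in DSM OE, against 10.3 and 9.67 FPKM in control (0.73 ± 0.11 SE, limma adjusted p = 0.0154). MRPS26 had 18.9 and 18.3 FPKM in DSM OE, against 32.3 and 34.4 FPKM in control (-0.81 ± 0.09 SE, limma adjusted p = 0.00833).

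The other 3 that fell in DSM OE belong to the large subunit. MRPL24, near the exit of the peptide tunnel, had 21.3 and 16.8 FPKM in DSM OE, against 30.9 and 27.5 FPKM in control (-0.60 ± 0.14 SE, limma adjusted p = 0.0458). MRPL14 had 73.3 and 65.6 FPKM in DSM OE, against 91.0 and 97.6 FPKM in control (-0.44 ± 0.10 SE, limma adjusted p = 0.0461). MRPL43, which has no bacterial counterpart, had 5.88 and 5.55 FPKM in DSM OE, against 11.04 and 10.4 FPKM in control (-0.80 ± 0.19 SE, limma adjusted p = 0.0491). For each of the 3 both DSM OE libraries were below both control libraries. MRPS6 and MRPS26 kept their calls without any 1 library, and MRPL30 lost its call without either control or either DSM OE library. MRPL24 kept its call only without DSM OE replicate 1 and MRPL43 only without a KD library, and MRPL14 lost it without any 1 library. The median of the members was -0.03 against 0.02 over all genes, and 37 of 78 were above 0. Before adjustment, 6 members were higher (7.69%, all genes 14.8%) and 13 lower (16.7%, all genes 13.4%) with a limma p under 0.05.

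WT OE and DSM OE share the control libraries in these 2 comparisons, so their agreement on MRPS6, MRPL30 and MRPS26 is not independent. Set against each other, WT OE against DSM OE, no member was called by limma, with 0.946% of all genes called higher and 0.65% lower. DAXX RNA averaged 221 FPKM in WT OE and 79.2 FPKM in DSM OE (1.43 ± 0.34 SE, limma adjusted p = 0.122). Its level and the mutation therefore cannot be told apart in this comparison. Before adjustment, limma gave 6 higher (7.69%, all genes 8.78%) and 3 lower members (3.85%, all genes 7.84%) with p under 0.05. The difference in MRPS6 was 0.11 (95% interval -0.22 to 0.44), in MRPL30 -0.03 (-0.29 to 0.23) and in MRPS26 -0.16 (-0.38 to 0.06) on the log2 scale. A difference between the wild-type and the mutant within these intervals was not detectable with 2 libraries per line. The largest was MRPL49, a large-subunit protein without a bacterial counterpart, at 3.49 ± 1.13 (SE, limma adjusted p = 0.211), which is described with the unstable members.

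WT OE against KD compared the highest with the lowest DAXX. WT OE cells carried a cDNA vector and KD cells an shRNA vector, so vector, shRNA and DAXX level cannot be told apart here. No member rose, with 5.78% of all genes called higher, and 7 fell (8.97%), with 5.91% of all genes called lower. The median member difference was -0.18 against 0.00 over all genes, and 57 of 78 lay below 0. Before adjustment, 5 members were higher (6.41%, all genes 13.9%) and 18 lower (23.1%, all genes 14.3%) with a limma p under 0.05. Both WT OE libraries were below both KD libraries for 41 members (52.6%, all genes 29.5%) and above both for 10 (12.8%, all genes 29.7%). With 1 library of WT OE or KD left out, the median was between -0.19 and -0.14. This comparison shares the KD libraries with KD against control.

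MRPS26 had 15.9 and 17.3 FPKM in WT OE, against 43.3 and 42.5 FPKM in KD, a log2 difference of -1.32 ± 0.09 (SE, limma adjusted p = 0.0012). MRPL15 had 22.6 and 23.7 FPKM in WT OE, against 52.0 and 55.6 FPKM in KD (-1.18 ± 0.13 SE, limma adjusted p = 0.0056). Both kept their calls without any 1 library. MRPL53, a large-subunit protein near the stalk with no bacterial counterpart, had 1.65 and 2.73 FPKM in WT OE, against 16.6 and 13.2 FPKM in KD (-2.33 ± 0.44 SE, limma adjusted p = 0.0259). Control lay between, at 9.43 and 3.45 FPKM, with duplicates far apart. MRPS34 had 47.7 and 43.3 FPKM in WT OE, against 71.6 and 72.6 FPKM in KD (-0.65 ± 0.10 SE, limma adjusted p = 0.0173).

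MRPL24 had 22.5 and 21.4 FPKM in WT OE, against 38.0 and 36.2 FPKM in KD (-0.73 ± 0.14 SE, limma adjusted p = 0.0251). MRPL21 (-0.62 ± 0.12 SE, limma adjusted p = 0.0257) and MRPS24 (-0.68 ± 0.15 SE, limma adjusted p = 0.0369) were the others, with the libraries given above. MRPS34 lost its call without either KD library or WT OE replicate 2. MRPL24 and MRPL53 lost it without either KD or either WT OE library, and MRPL21 and MRPS24 without any 1 library other than the DSM OE ones.

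**Figure D3:**
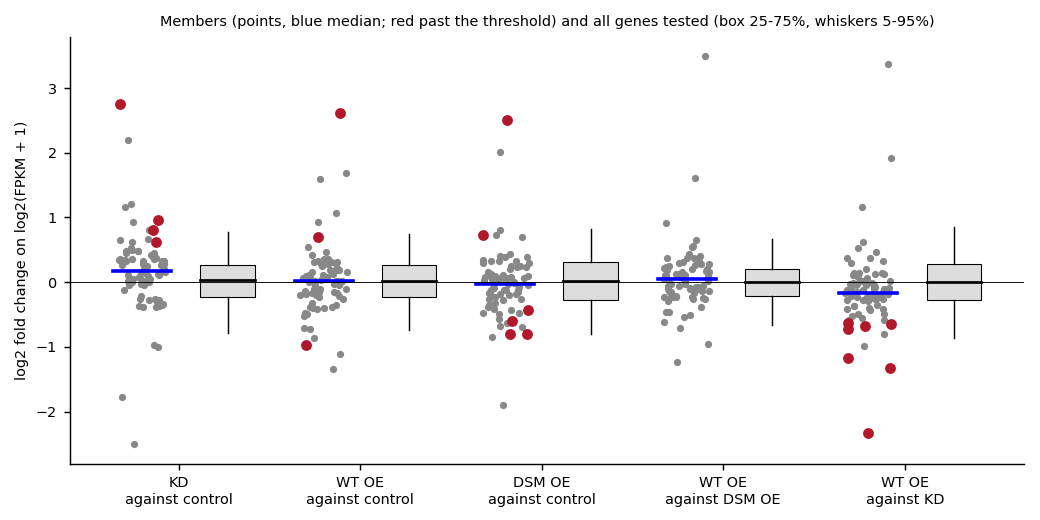
Log2 difference on log2(FPKM + 1) (y axis) of the 78 members (points, red where called, blue line their median) and of all genes tested (box from the 25th to the 75th percentile, whiskers from the 5th to the 95th) in the 5 comparisons (x axis). The member median is 0.18 in KD against control and -0.18 in WT OE against KD, and near 0 in the other 3.

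Some members were at a high level in 1 library of a line and near 0 in the other. A gap of at least 2 on the log2(FPKM + 1) scale between the duplicates of a line was present in 5 of the 78 members (6.41%), MRPL13, MRPL19, MRPL20, MRPL49 and MRPS16, against 4.06% of all genes. A gap of at least 1 was present in 13 members (16.7%) against 15.0% of all genes. MRPL49 had 14.4 and 16.7 FPKM in WT OE, 0.525 and 0.409 FPKM in DSM OE, 0.513 and 0.675 FPKM in KD and 0.441 and 19.7 FPKM in control. MRPS16, a core protein of the small subunit, had 19.4 and 0.882 FPKM in WT OE, 0.772 and 1.34 FPKM in DSM OE, 1.01 and 38.5 FPKM in KD and 0.827 and 1.05 FPKM in control. MRPL49 was thus high in 3 libraries and MRPS16 in 2, in each case with duplicates of a line on opposite sides.

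MRPL20, a core protein of the large subunit, had 7.63 and 0.493 FPKM in WT OE, 7.09 and 7.74 FPKM in DSM OE, 0.691 and 0.529 FPKM in KD and 9.23 and 7.16 FPKM in control. MRPL13, another core protein of the large subunit, had 3.62 and 0.123 FPKM in WT OE, 3.09 and 3.75 FPKM in DSM OE, 0.0648 and 3.06 FPKM in KD and 0.0877 and 0.0902 FPKM in control. MRPL19, on the large-subunit surface that faces the small one, had 4.0 and 2.49 FPKM in WT OE, 9.28 and 0.431 FPKM in DSM OE, 0.11 and 0.108 FPKM in KD and 3.0 and 0.191 FPKM in control. The files hold 1 value per gene, and the part that switching between the transcripts behind it had in these gaps was not tested. Some of their differences were wide without passing the threshold: MRPL20 in KD against control (-2.51 ± 0.75 SE, limma adjusted p = 0.118), MRPS16 in the same comparison (2.2 ± 1.62 SE, limma adjusted p = 0.471) and MRPL49 in WT OE against KD (3.37 ± 1.13 SE, limma adjusted p = 0.117).

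For MRPL20 the duplicates of KD and of control lay close together and the gap was in WT OE, whose libraries enter the shared spread. Without WT OE replicate 1 the limma adjusted p of MRPL20 in KD against control was 0.00412, without WT OE replicate 2 it was 0.00399, and with only the 2 lines compared 0.0231, with the difference at -2.51 in each. With only 1 WT OE library left, the difference of MRPL20 depended on which was kept. Without replicate 1 it was -2.61 against control and -2.49 against DSM OE, and without replicate 2 it was -0.081 and 0.038. MRPL49 was alike, with close duplicates in WT OE and KD and the gap in control. Leaving out a control library brought its limma adjusted p in WT OE against KD to 0.00246 (replicate 1 omitted) or 0.00239 (replicate 2 omitted), and with only the 2 lines compared it was 0.0192, at a difference of 3.37 throughout. The MRPL49 difference of 3.49 in WT OE against DSM OE also passed without either control library. Its difference from control again depended on the control library kept. Without control replicate 1 it was -3.82 in DSM OE and -3.70 in KD, and without replicate 2 it was 0.025 and 0.14. With only the 2 lines compared, MRPL13 passed in DSM OE against control (2.02, limma adjusted p = 0.034) and MRPL19 in WT OE against KD (1.91, limma adjusted p = 0.0466).

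**Figure D4:**
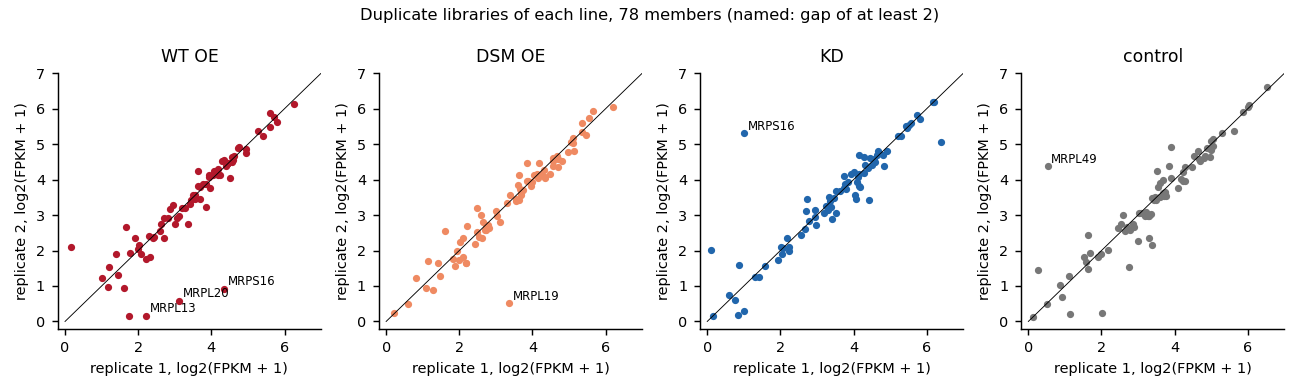
The 2 libraries of each line plotted against each other for the 78 members, log2(FPKM + 1) of replicate 1 (x axis) and replicate 2 (y axis), with the line of equality; members with a gap of at least 2 are named. MRPS16 stands apart in WT OE and KD, MRPL49 in control, MRPL19 in DSM OE, and MRPL13 and MRPL20 in WT OE.

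Without the 13 members with a gap of at least 1, the median difference of the other 65 was 0.21 in KD against control, with 51 above 0. It was -0.19 in WT OE against KD, with 12 above 0. Other genes with such a gap were not taken out of the values over all genes, so these medians have no like comparison.

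**Figure D5:**
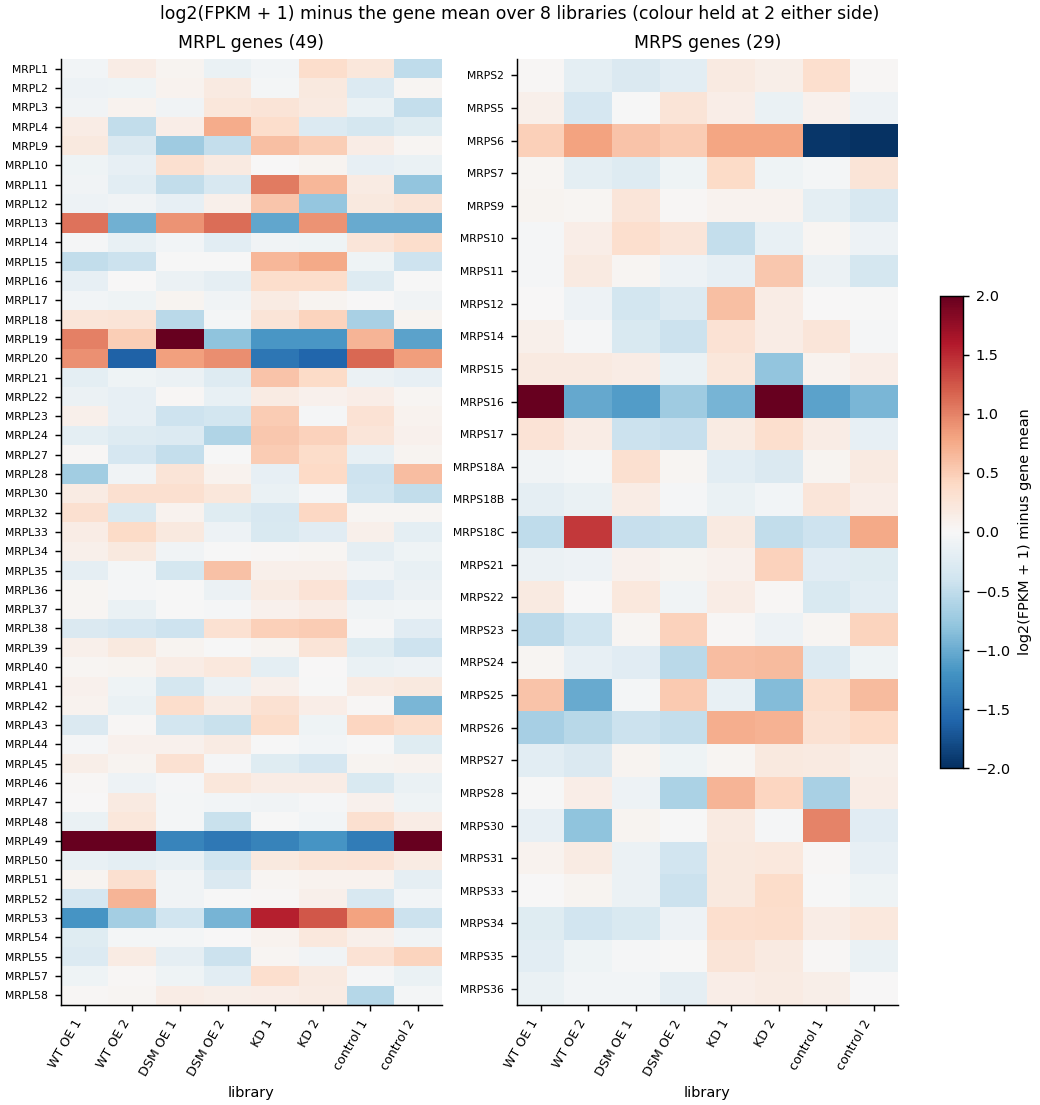
Log2(FPKM + 1) minus the gene's mean over the 8 libraries (colour, held at 2 either side) for the 49 MRPL (left) and 29 MRPS (right) members (rows) in each library (columns). MRPL49, MRPS16, MRPL20, MRPL13 and MRPL19 vary within lines, and MRPS6 is low in the control columns only.

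Genes that overlap a called member or lie within 1000 bases of it were looked up. Of those that passed the filter, TMEM63B (by MRPL14), METTL25B (MRPL24), MITD1 (MRPL30), CCDC142 (MRPL53), NME3 and EME2 (both MRPS34) were called in no comparison. HDGF, a growth factor gene that overlaps MRPL24 by 610 bases on the same strand, had 79.6 and 76.7 FPKM in DSM OE, against 131 and 119.9 FPKM in control, and 103 and 95.3 FPKM in WT OE, against 139 and 138 FPKM in KD. It was called where MRPL24 was, in DSM OE against control (-0.68 ± 0.09 SE, limma adjusted p = 0.0122; lost without control replicate 1 or DSM OE replicate 2) and in WT OE against KD (-0.48 ± 0.09 SE, limma adjusted p = 0.0252; lost without either library of either line). IGHMBP2, a helicase gene 58 bases from MRPL21, fell in WT OE against KD like MRPL21 (-0.96 ± 0.13 SE, limma adjusted p = 0.0113; lost without KD replicate 1 or WT OE replicate 2). TWNK, which encodes the mitochondrial DNA helicase and lies 45 bases from MRPL43, fell in WT OE against KD (-0.76 ± 0.11 SE, limma adjusted p = 0.0126; lost without KD replicate 1 or either WT OE library), where MRPL43 did not pass (-0.27 ± 0.19 SE, limma adjusted p = 0.409). SLC5A3 lies within the MRPS6 gene on the same strand, and had 2.34 and 3.83 FPKM in WT OE, 1.99 and 3.43 FPKM in DSM OE, 3.91 and 3.86 FPKM in KD and 2.72 and 1.93 FPKM in control, without a call. Whether reads were shared between such neighbours was not tested.

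Other genes of the pathway were followed by list. Of 5 mitoribosomal proteins with other symbols, none was called against control by limma. An unadjusted limma p under 0.05 was given to 1 lower in WT OE (all genes 10.4%), 1 lower in DSM OE (13.4%) and 3 higher in KD (12.1%). In WT OE against KD 5.91% of all genes were called lower. CHCHD1 (19.3 and 19.5 FPKM in WT OE, against 27.5 and 26.8 FPKM in KD) fell there (-0.46 ± 0.09 SE, limma adjusted p = 0.0283). This call was lost without either library of either line. The median of the 5 was 0.27 in KD against control. Of 24 assembly factors, 2 rose in KD against control, where 3.51% of all genes were called higher. These were MPV17L2 (0.54 ± 0.10 SE, limma adjusted p = 0.036) and RBFA, a factor that binds the small-subunit RNA (0.79 ± 0.14 SE, limma adjusted p = 0.029). RCC1L fell in DSM OE against control (-0.83 ± 0.18 SE, limma adjusted p = 0.0403), where 5.5% of all genes were called lower. The GTPase gene MTG1 (-0.55 ± 0.12 SE, limma adjusted p = 0.0372) and RBFA (-0.65 ± 0.14 SE, limma adjusted p = 0.0354) fell in WT OE against KD, with 5.91% of all genes. The calls of MPV17L2, RBFA and MTG1 were lost without any 1 library and that of RCC1L without any other than a KD library. None of 14 translation factors was called in any of the 5 comparisons. Before adjustment, limma gave a p under 0.05 to 2 higher in KD (all genes 12.1%) and 1 lower in WT OE (10.4%) against control. In DSM OE against control it did so for 1 higher (14.8%) and 2 lower (13.4%). The counts were 1 higher in WT OE against DSM OE (8.78%) and 3 lower in WT OE against KD (14.3%).

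Of 8 genes for replication and transcription of mitochondrial DNA, TFB2M, a transcription initiation factor, rose in KD with 16.3 and 15.6 FPKM, against 8.87 and 9.22 FPKM in control (0.76 ± 0.14 SE, limma adjusted p = 0.032; lost without any 1 control or KD library). In KD against control 3.51% of all genes were called higher. TFB2M, TWNK and POLRMT, the mitochondrial RNA polymerase, fell in WT OE against KD, where 5.91% of all genes were called lower. TFB2M lost that call without either KD library, and POLRMT without either library of either line. The median of the 8 in WT OE against KD was -0.26, with 2 above 0. Of 7 regulators of mitochondrial biogenesis, MYC rose in KD with 54.8 and 51.7 FPKM, against 27.4 and 32.1 FPKM in control (0.82 ± 0.15 SE, limma adjusted p = 0.0318; kept only without a WT OE library). PPRC1, a co-activator, had 6.67 and 6.53 FPKM in WT OE, against 16.0 and 15.6 FPKM in KD (-1.14 ± 0.13 SE, limma adjusted p = 0.00624) and kept this call without any 1 library; it also fell in WT OE against control (-0.69 ± 0.13 SE, limma adjusted p = 0.0446), where leaving out any 1 library lost it. MYC (-1.03 ± 0.15 SE, limma adjusted p = 0.0126; lost without either KD library) and ESRRA (-0.997 ± 0.23 SE, limma adjusted p = 0.0467; kept only without a DSM OE library) fell in WT OE against KD as well. GABPA rose in DSM OE against control (0.60 ± 0.14 SE, limma adjusted p = 0.0475; lost without any 1 library). YY1 and NRF1 were called in none. Of all genes, 3.51% were called higher in KD, 2.62% lower in WT OE and 5.51% higher in DSM OE against control. In WT OE against KD 5.91% were called lower. The median of the 7 regulators there was -0.018, with 3 above 0.

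The mRNAs that the mitochondrial ribosome translates followed another pattern. In DSM OE against control 6 of 13 fell and none rose, where 5.5% of all genes were called lower and 5.51% higher. Their median was -0.41, with 1 above 0. MT-ATP6 and MT-ATP8 averaged 1.84 and 1.25 FPKM over the 8 libraries. The others of the list averaged from 119 FPKM (MT-CO3) to 1446 FPKM (MT-CO2). How reads were assigned among these mRNAs was not tested. In WT OE against control limma called none of the 13, where 2.49% of all genes were called higher and 2.62% lower. Before adjustment, limma gave a p under 0.05 to 1 higher (all genes 12.2%) and 1 lower (all genes 10.4%) there, and the median was 0.06. MT-ND4, a subunit of complex I, had 186 and 186 FPKM in DSM OE, against 364 and 362 FPKM in control (-0.96 ± 0.07 SE, limma adjusted p = 0.00295), and kept its call without any 1 library. MT-CO1 (-0.85 ± 0.11 SE, limma adjusted p = 0.0116), MT-ND1 (-0.83 ± 0.10 SE, limma adjusted p = 0.00942) and MT-ND4L (-0.73 ± 0.11 SE, limma adjusted p = 0.0177) were called as well, with MT-CO2 and MT-ND5. Each of these 5 lost its call without control replicate 1, and all but MT-ND1 without control replicate 2. MT-ND4L and MT-CO2 also lost it without DSM OE replicate 2, and MT-CO2 without either KD library. MT-ND5 kept its call only without a WT OE library. In WT OE against DSM OE, where DAXX RNA level and mutation cannot be told apart, 5 of the 13 were higher. Of all genes 0.946% were called higher there. MT-ND4 was higher by 0.88 ± 0.07 (SE, limma adjusted p = 0.0116). MT-ND4 lost this call without either control or either KD library. MT-CO1, MT-CO2 and MT-ND5 lost it without any 1 library, and MT-ND4L kept it only without DSM OE replicate 1. In KD against control MT-CO3, with 169 and 172 FPKM in KD, against 97.1 and 101 FPKM in control, rose by 0.78 ± 0.12 (SE, limma adjusted p = 0.0207) and MT-ND5 by 0.36 ± 0.07 (SE, limma adjusted p = 0.0453), and the median of the 13 was 0.02; MT-CO3 lost the call without any 1 KD or control library and MT-ND5 without any 1 library.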

How the data were processed

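RNA of 8 libraries, 2 per line, was sequenced from polyadenylated RNA. FPKM values per gene were deposited by the authors, whose processing notes name HISAT2, StringTie and limma and both GRCh38 and hg19; the step from transcripts to genes is not given in the sources read. Ensembl IDs were given symbols from RefSeq where it listed the ID and otherwise from a GENCODE table, and 35836 of 36991 genes were named. Genes with FPKM of at least 1 in at least 2 libraries were tested with limma 3.58.1 (R 4.3.3) on log2(FPKM + 1), with 4 line means over all 8 libraries, a variance trend, 4 residual and 1.863 prior degrees of freedom, and Benjamini-Hochberg adjustment over 10465 genes. The design text describes duplicate cultures and the treatment protocol triplicates; the p-values measure only the spread between cultures of 1 line each. No duplicate pair held more than 3 identical values above 0. The fit was tested on simulated data.

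Members and lists were chosen with earlier results of these data known. Named members were those past the threshold, the 2 largest rises and falls, the 3 highest and 3 lowest means, the 3 with the largest gap between duplicates and 7 with known roles; lists were named by the threshold or level, and neighbours past it by distance (1000 bases). In Python 3, promoter letters were searched in RefSeq sequences; the 30 bases before each promoter's end were found in the gene's own GENCODE transcripts for 63 of 70 members and in reverse complement for 0. Alternatives were the pseudocount (0.1), the filter (none, or a mean of 5), median scaling, quantile normalization, no trend, a robust fit, only the 2 lines compared, a replicate block, the study's rule of an unadjusted p under 0.05 and a 1.3-fold change, and leaving out each library.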

Additional observations from a re-analysis of the deposited data

How the results depend on the processing

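Members called in KD against control (4) were 2 with only the 2 lines compared, and 16 by an unadjusted p under 0.05 with a 1.3-fold change (18.7% of all genes passed that rule); without 1 library they were 1 to 4. Members called in WT OE against control (3) were 0 and 12 (all genes 18.1%) under those 2 settings. With only the 2 lines compared, limma called 268 of all 10465 genes in KD against control. It called 16 of them in WT OE and 149 in DSM OE against control. Members called in DSM OE against control (6) were 2 and 17 (all genes 23.8%), and 3 both without the filter and without the variance trend; without 1 library they were 2 to 4. In WT OE against DSM OE (0) the study's rule gave 6 (all genes 12.6%), and leaving out 1 library gave 0 or 1 (MRPL49 or MRPL20). In WT OE against KD (7) the study's rule gave 16 (all genes 23.9%) and leaving out 1 library 2 to 8. Replicate numbers did not pair the samples (correlations of deviations -0.061 to 0.043 over the 6 pairs of lines). With a replicate block the counts were 2 for KD (all genes 371), 2 for WT OE (140) and 3 for DSM OE (542) against control. They were 0 for WT OE against DSM OE (all genes 22) and 5 for WT OE against KD (761). In DSM OE against control, 1170 of 19241 genes were called without the filter, and 1111 of 10465 without the variance trend. With 1 library left out, fewer of all genes were called too, in each comparison. Uncalled differences changed sign when 1 library was left out, with ranges of -1.97 to 0.069 for MRPL13 and -2.49 to 0.038 for MRPL20 in WT OE against DSM OE, -3.82 to 0.025 for MRPL49 in DSM OE and -3.70 to 0.14 in KD against control, and for MRPS16 -0.11 to 3.33 in WT OE against DSM OE and -0.040 to 3.4 in WT OE against control. With 1 library left out of a line, the other was assumed to vary like the rest. With only the 2 lines compared 2 residual degrees of freedom remain. Depth is unknown, so the precision of low values cannot be given.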
